A study of Mus musculus with 4 samples.

Results

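The 10 transcripts of natural killer (NK) cells and cytotoxic lymphocytes, namely Klrd1, Klrk1, Ncr1, Gzma, Gzmb, Gzmk, Prf1, Nkg7, Ccl5 and Fasl, were examined in resting CD4 T cells of mouse spleen. They were chosen by name, with earlier results of these data known. They are 10 of the 19937 genes that had a probe set of their own on the arrays. Each of the 10 was read by a single probe set whose annotation names no other gene.

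CD4 T cells were taken from spleens of adult mice of 6 to 8 weeks, either wild-type (WT, 2 arrays) or Ifitm-/- (2 arrays). The knockout is called IfitmF-/- here because it lacks the Ifitm gene family as a whole, on a C57BL/6 background. The labels name the cells naive (resting), and no stimulus is given for them. Red cells were lysed with ammonium chloride and other cells were removed by negative selection with magnetic beads, a step that leaves behind whatever the antibody mix does not bind. Per the study each array combined the cells of a pair of mice, with a purification of its own for each replicate. The p-values measure the spread between these arrays only.

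Total RNA was measured on Affymetrix Mouse Gene 1.0 ST arrays. Levels are log2 RMA intensities and are comparable between arrays for 1 gene, but not between genes, since probe sets differ in brightness. Changes are log2 differences, WT subtracted from IfitmF-/-, and a change was called at a limma adjusted p under 0.05 over all 34760 probe sets. The Ifitm3 probe set was at 9.26 and 8.91 in WT cells and at 4.61 and 4.36 in IfitmF-/- cells, in the direction of the labels. Xist was at 11.32 and 11.25 in WT and 4.86 and 4.43 in IfitmF-/- cells, while the Y-linked gene Uty was at 3.97 and 4.09 and at 9.01 and 8.83, so sex and genotype cannot be told apart in anything that follows. Defining transcripts of the labelled cell type were bright on all arrays, with Cd4 between 11.44 and 11.79 and Cd3e between 12.07 and 12.15. Some arrays stood apart in transcripts of other cells. The mean level of B cell markers was 9.63 on WT replicate 1 against 8.03 to 8.66 on the others, and that of platelet markers was 10.47 on IfitmF-/- replicate 2 against 8.54 to 9.15.

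NK cells and cytotoxic T cells kill by releasing granules in which perforin (Prf1) opens the target membrane to granzymes (Gzma, Gzmb, Gzmk), serine proteases that set off cell death. A separate route is Fas ligand (Fasl), which engages the death receptor Fas. NK cells are steered by germline-encoded receptors, among them the lectin-like chain CD94 (Klrd1), which pairs with NKG2 chains, the activating receptor NKG2D (Klrk1) and NKp46 (Ncr1). Resting helper T cells are not known for killing, but effector and memory T cells, NKT cells and innate-like lymphocytes of the spleen use parts of the same machinery.

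Of the 10 transcripts, Gzmb, Nkg7 and Fasl fell in IfitmF-/- cells and 0 rose. Over all 19937 genes 8.57% were called, 3.61% lower and 4.96% higher. Among the 8634 genes whose mean level lay within the range of the 10 transcripts, 16.9% were called. The 3 NK receptor transcripts had changes of 0.35 to 1.11 and the 7 effector transcripts of -1.02 to 0.02. The IfitmF-/- arrays lay wholly above the WT arrays for 3 transcripts, all of them receptors, and wholly below for 4, all of them effectors. The arrays of the genotypes parted without overlap for 58.7% of all genes, 27.9% with IfitmF-/- above and 30.8% below, a share not far from 7 of 10. The median change of the 10 was -0.16 and that over all genes -0.02. The former rested on single arrays, since it was -0.02 without WT replicate 1, -0.06 without IfitmF-/- replicate 2, -0.30 without WT replicate 2 and -0.31 without IfitmF-/- replicate 1. In bulk RNA, fewer cells of a type and less RNA per cell cannot be told apart.

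**Figure D1:**
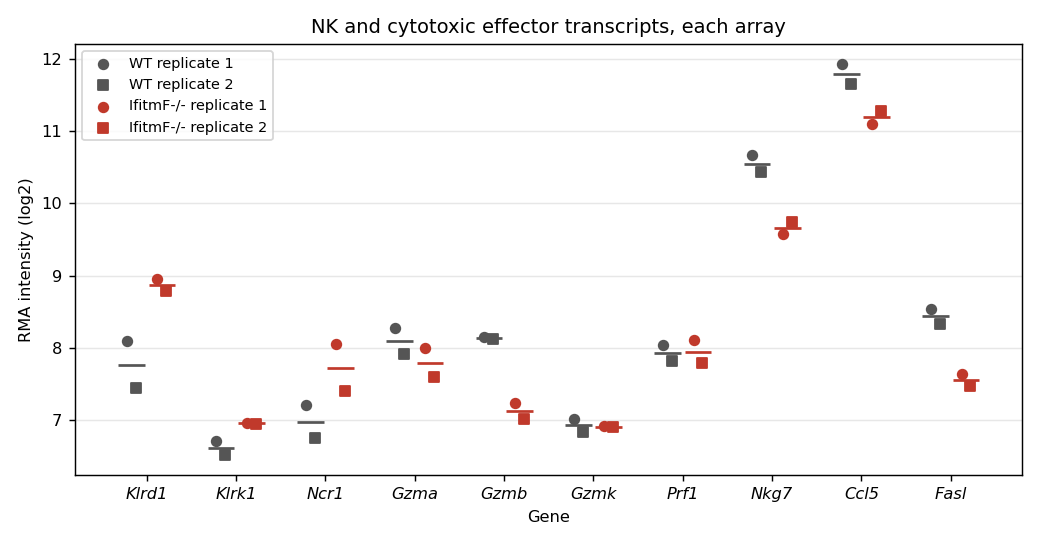
Log2 RMA intensity (y axis) of each of the 10 transcripts (x axis) on the 4 arrays; grey marks are WT, red marks IfitmF-/-, circles replicate 1, squares replicate 2, and the short lines are group means. Red lies above grey for Klrd1, Klrk1 and Ncr1 and below grey for Gzmb, Nkg7, Ccl5 and Fasl, while the arrays mix for Gzma, Gzmk and Prf1.

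Gzmb, which encodes granzyme B, a protease that cuts caspases and their substrates, was at 8.16 and 8.13 in WT cells and at 7.23 and 7.02 in IfitmF-/- cells. Both WT arrays were at nearly the same level, and both IfitmF-/- arrays lay below them. The change was -1.02 (95% interval -1.30 to -0.74, adjusted p = 0.0199), which is a 2.02-fold fall. Gzma, which encodes granzyme A, a tryptase-like member of the family, was at 8.28 and 7.91 in WT and 7.99 and 7.60 in IfitmF-/- cells. Its genotypes overlapped, with a change of -0.30 and an interval of -0.83 to 0.23 (adjusted p = 0.414). Gzmk, which encodes granzyme K, was at 7.02 and 6.83 in WT and 6.91 on both IfitmF-/- arrays. Its change of -0.02 had an interval of -0.28 to 0.25 (adjusted p = 0.938), so a change as large as that of Gzmb lies outside it. Gzma and Gzmk are neighbours on chromosome 13, whereas Gzmb lies on chromosome 14 beside other granzyme genes.

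Among the other granzyme genes, Gzmc, Gzmd, Gzme, Gzmf, Gzmg, Gzmm and Gzmn lay between 3.95 and 5.99 over all arrays, with 0 of 7 called and changes of -0.17 to 0.11.

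Prf1 was at 8.03 and 7.82 in WT and at 8.10 and 7.79 in IfitmF-/- cells. The perforin transcript therefore overlapped fully between genotypes, with a change of 0.02 and an interval of -0.38 to 0.42 (adjusted p = 0.941).

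Nkg7, which encodes a membrane protein of cytotoxic granules, was at 10.67 and 10.43 in WT and at 9.58 and 9.75 in IfitmF-/- cells. All IfitmF-/- values lay below all WT values, and the change was -0.89 (interval -1.23 to -0.55, adjusted p = 0.0321), a 1.85-fold fall. Fasl was at 8.54 and 8.33 in WT and at 7.64 and 7.47 in IfitmF-/- cells. It fell 1.84-fold, with a change of -0.88 (interval -1.20 to -0.57, adjusted p = 0.0288) and again no overlap. Ccl5, which encodes the chemokine RANTES of memory and cytotoxic lymphocytes, was at 11.94 and 11.65 in WT and 11.11 and 11.28 in IfitmF-/- cells. Its arrays did not overlap, but its change of -0.60 (interval -0.97 to -0.24) missed the threshold (adjusted p = 0.0743).

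Leaving out an array leaves its genotype with a lone array, which is then assumed to vary like the other genotype, the sole source of the spread beside limma's prior. Such fits therefore say nothing on the 3 calls in particular, and only their changes are given here. With all arrays 7 of the 10 and 25.8% of all genes had an unadjusted p under 0.05 in limma. Over those 4 fits the change ran from -1.12 to -0.91 for Gzmb, from -1.01 to -0.77 for Nkg7 and from -0.99 to -0.78 for Fasl. A call with a fold change above 2 whose arrays also spanned 250 or more linear units, the filter used for these arrays, was made for 0 of the 10 and for 1.28% of all genes. Gzmb passed the fold but spanned only 130 to 285 linear units. Klrd1 passed the fold and the span, at 174 to 497 linear units, but was not called in limma (adjusted p = 0.0683).

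**Figure D2:**
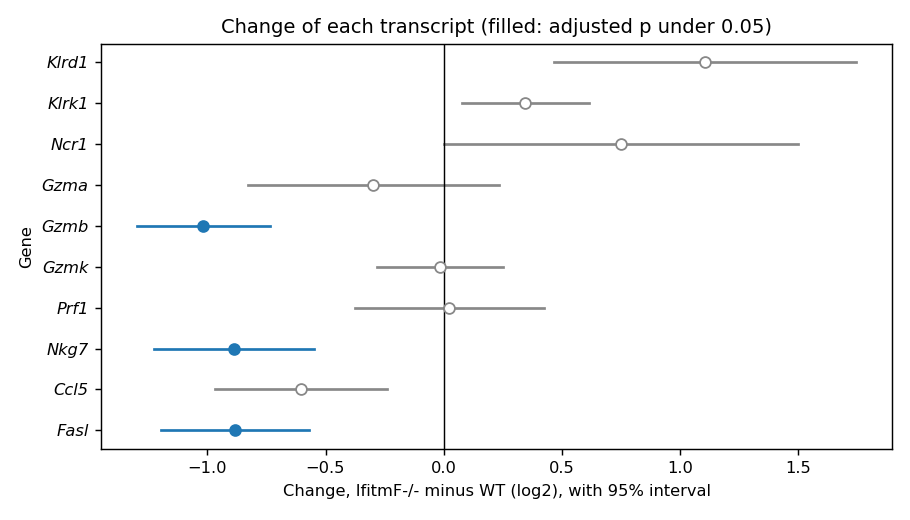
Change of each transcript (x axis, log2, IfitmF-/- minus WT) with its 95% interval from limma; filled blue points have an adjusted p under 0.05. Gzmb, Nkg7 and Fasl, at -1.02, -0.89 and -0.88, are filled, and Klrd1 has the highest change (1.11) and, with Ncr1, the widest intervals.

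Klrd1 was at 8.09 and 7.44 in WT and at 8.96 and 8.79 in IfitmF-/- cells. Both IfitmF-/- arrays lay above both WT arrays, with a spread of 0.46 (SD, n = 2) between the WT arrays. The change was 1.11 (interval 0.47 to 1.75) and was not called (adjusted p = 0.0683), and it ran from 0.78 without WT replicate 2 to 1.43 without WT replicate 1. Klrk1 was at 6.71 and 6.51 in WT and at 6.96 and 6.95 in IfitmF-/- cells, a change of 0.35 (interval 0.08 to 0.61, adjusted p = 0.123). Ncr1, the receptor most confined to NK cells and related innate lymphocytes, was at 7.21 and 6.75 in WT and at 8.05 and 7.40 in IfitmF-/- cells. Its change was 0.75 and its adjusted p was 0.189, with a spread of 0.46 (SD, n = 2) between the IfitmF-/- arrays. Single arrays moved it, to 0.42 without IfitmF-/- replicate 1, 0.52 without WT replicate 2, 0.98 without WT replicate 1 and 1.08 without IfitmF-/- replicate 2. For all 3 receptors both IfitmF-/- arrays lay above both WT arrays, and 0 of 3 were called.

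Promoter sequences are shown for the 3 transcripts that fell and for Klrk1, a receptor with higher values, because they let the reader compare the letters bound by lymphocyte transcription factors. They are the 250 bases before the gene start from RefSeq on GRCm38.p6, printed 5′ to 3′ along the gene, and RefSeq windows were at hand for 8 of the 10 genes. Capitals mark the letters searched on both strands: TGTGGT, read by Runx factors, GGTGTGA, part of the T-box site of T-bet and Eomes, TGANTCA for AP-1, TTANGTAA for Nfil3 and the NF-κB motif. No matches overlapped each other in these windows.
Gzmb, chr14:56262335-56262584, minus strand: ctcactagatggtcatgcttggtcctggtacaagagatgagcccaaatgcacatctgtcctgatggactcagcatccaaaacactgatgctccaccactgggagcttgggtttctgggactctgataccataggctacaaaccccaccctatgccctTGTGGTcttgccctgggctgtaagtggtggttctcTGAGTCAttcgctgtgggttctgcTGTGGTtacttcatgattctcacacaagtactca
Nkg7, chr7:43436888-43437137, plus strand: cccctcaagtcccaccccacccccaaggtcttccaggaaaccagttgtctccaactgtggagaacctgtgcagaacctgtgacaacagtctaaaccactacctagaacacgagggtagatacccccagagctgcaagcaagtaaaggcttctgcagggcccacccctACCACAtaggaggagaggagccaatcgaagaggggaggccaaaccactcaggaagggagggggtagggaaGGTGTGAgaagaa
Fasl, chr1:161788496-161788745, minus strand: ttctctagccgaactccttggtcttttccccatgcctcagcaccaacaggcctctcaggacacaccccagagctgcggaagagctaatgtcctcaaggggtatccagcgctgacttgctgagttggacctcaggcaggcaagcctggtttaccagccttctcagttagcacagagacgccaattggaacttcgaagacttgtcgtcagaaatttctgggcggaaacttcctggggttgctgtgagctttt
Klrk1, chr6:129623865-129624114, minus strand: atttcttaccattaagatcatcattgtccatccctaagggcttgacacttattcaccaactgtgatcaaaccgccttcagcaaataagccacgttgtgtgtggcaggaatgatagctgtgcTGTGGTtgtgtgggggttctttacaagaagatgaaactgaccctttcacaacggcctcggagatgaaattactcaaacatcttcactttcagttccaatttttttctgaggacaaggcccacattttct

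The Runx letters were in the window of 6 of the 8 genes, namely Gzma, Gzmb, Klrk1, Ncr1, Nkg7 and Prf1, and in 14.0% of all 32851 windows of the table. They occurred both in genes that fell and in genes with higher or overlapping values. The T-box letters were in Gzmk and Nkg7, and in 3.33% of all windows. Of the 8, the AP-1 letters were in Gzmb alone, from 58 to 52 bases before its start, and in 6.75% of all windows. The Nfil3 and NF-κB letters were in 0 of the 8, and in 2.06% and 0.356% of all windows. The Fasl window held none of these letters, which says only that they are not in this stretch.

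The next question was whether genes that work beside these transcripts moved with them. Companion genes were taken from 7 lists, of which 105 genes had a probe set of their own. In IfitmF-/- cells 9 were higher and 10 lower, 18.1% of them in all against 8.57% of all genes. Most companions were bright, and bright genes were called more often. The part of brightness in the share of companions called was not tested. When only probe sets at or above the median level were tested, 26 of 83 companions and 2577 of 10494 genes were called. The median change of the 105 companions was 0.06.

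Among NK receptors and their adaptors, 1 rose and 2 fell of 32 measured, and the median change was 0.14. The gene that rose was Klrb1f, a lectin-like receptor of the NKR-P1 family, which went from 8.13 ± 0.00 to 8.63 ± 0.09 (SD, n = 2; adjusted p = 0.044). Klrb1b, the inhibitory receptor of the same family, fell from 8.24 ± 0.13 to 7.52 ± 0.14 (SD, n = 2; adjusted p = 0.0417). Il2rb, the receptor chain shared by IL-2 and IL-15 on which NK and memory T cells depend, fell from 11.17 ± 0.10 to 10.42 ± 0.03 (SD, n = 2; adjusted p = 0.024). Klrc1, Klrc2, Hcst, Klrb1c, Ctsw, Srgn, Fas, Ccl3, Ccl4, Tbx21 and Runx3 are named for their role beside the 10 and were picked after their values had been seen. Of the NKG2 partners of CD94, Klrc1 was at 7.81 and 7.30 in WT and 7.59 and 7.53 in IfitmF-/- cells (change 0.01, interval -0.51 to 0.52, adjusted p = 0.987), and Klrc2 had a change of -0.10 (adjusted p = 0.746). Hcst, the DAP10 adaptor through which NKG2D signals, had a change of 0.36 (adjusted p = 0.164). Klrb1c, the NK1.1 antigen of C57BL/6 mice, was at 7.11 and 6.77 in WT and at 7.54 and 7.50 in IfitmF-/- cells, a change of 0.58 that was not called (adjusted p = 0.0837).

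Of 16 measured granule proteins beyond those of the 10, 2 fell and 0 rose. Cst7, the inhibitor of granule cathepsins known as cystatin F, fell by 0.52 (adjusted p = 0.0459) and the chaperone gene Calr by 0.53 (adjusted p = 0.0376). Ctsw, a cysteine protease of cytotoxic lymphocytes, was at 10.09 and 9.82 in WT and 9.37 and 9.40 in IfitmF-/- cells and missed the threshold (change -0.57, adjusted p = 0.0651). Srgn, the proteoglycan core on which granzymes are packed, was at 13.00 to 13.14 and had a change of -0.12 (adjusted p = 0.404). Of 14 genes of the machinery that brings granules to the synapse, 0 were called. In limma 6 of them and 25.8% of all genes had an unadjusted p under 0.05. Of these 6 only Stx11 was lower, while Rab27a, Unc13d, Vamp7, Vamp8 and Coro1a were higher. Stx11, a syntaxin needed for granule fusion, had a change of -0.74 (adjusted p = 0.0753) and Rab27a, the GTPase that docks granules, of 0.35 (adjusted p = 0.0896).

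The death receptor pathway moved in both directions, with 3 genes higher and 2 lower of 14. While Fasl fell, its receptor Fas was at 7.55 and 7.54 in WT and 7.67 and 7.76 in IfitmF-/- cells (change 0.17, adjusted p = 0.274). Downstream of Fas, the adaptor Fadd rose from 6.51 ± 0.01 to 7.25 ± 0.02 and the initiator caspase Casp8 from 10.91 ± 0.00 to 11.70 ± 0.01 (SD, n = 2; adjusted p = 0.0203 and 0.018). The related ligand Tnfsf10, known as TRAIL, rose by 0.63 (adjusted p = 0.0289), and its receptor Tnfrsf10b fell by 1.84, from 8.67 ± 0.08 to 6.84 ± 0.12 (SD, n = 2; adjusted p = 0.0126). The Fas and TRAIL ligands changed in opposite directions, and so did TRAIL and its receptor. Ifng, the interferon gamma gene placed on the same list, fell by 0.65 (adjusted p = 0.0273).

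Of 9 measured genes on the list of chemokines and chemokine receptors, not all of them particular to cytotoxic cells, 2 rose, a chemokine and a receptor. A chemokine was the 1 that fell. Xcl1, the lymphotactin gene of NK and CD8 T cells, fell from 9.26 ± 0.38 to 7.91 ± 0.04 (SD, n = 2; adjusted p = 0.0342). Ccl9 rose by 1.11 (adjusted p = 0.0144) and Cxcr6, a receptor of memory T, NKT and liver-homing lymphocytes, by 0.85 (adjusted p = 0.0354). Ccl3 and Ccl4, which share receptors with Ccl5, had changes of 0.60 and -0.18 (adjusted p = 0.252 and 0.336). Ccl9, Ccl3 and Ccl4 are measured neighbours of Ccl5 on chromosome 11, so genes of the same cluster had changes of either sign.

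Of 12 measured transcription factors of cytotoxic cells 2 fell and 0 rose. Nfil3, needed for NK cell development, fell from 8.91 ± 0.27 to 7.20 ± 0.00 (SD, n = 2; adjusted p = 0.0161). Eomes, a T-box factor that drives Gzmb and Prf1, was at 8.56 and 8.21 in WT and at 7.65 and 7.55 in IfitmF-/- cells, and its adjusted p of 0.04995 lay barely under the threshold. The other T-box factor of these cells, Tbx21, had a change of 0.03 (adjusted p = 0.916), and Runx3 of -0.03 (adjusted p = 0.851).

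**Figure D3:**
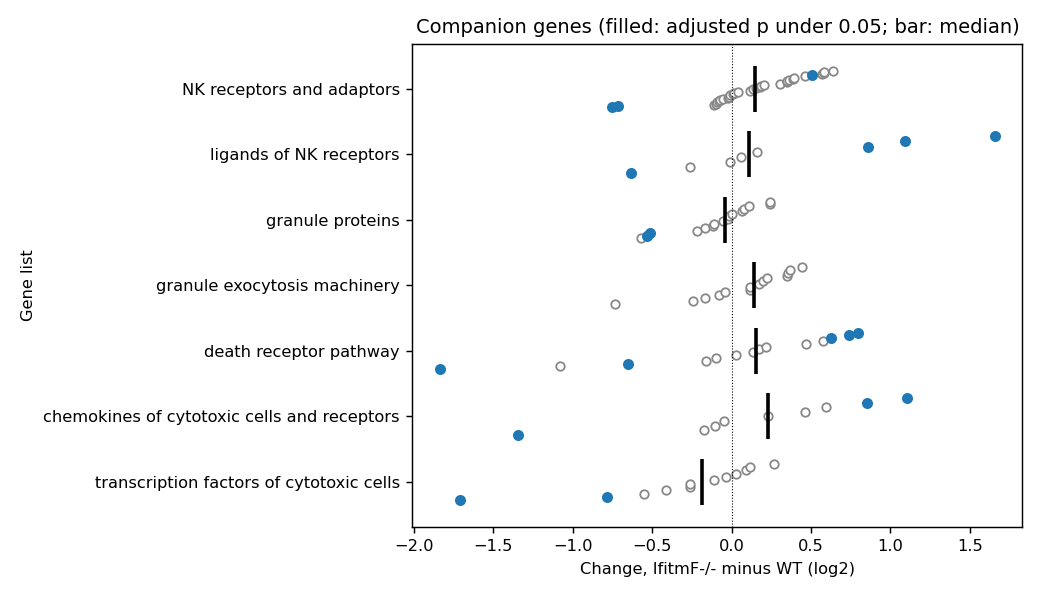
Change of each companion gene (x axis, log2, IfitmF-/- minus WT) in 7 lists (y axis); filled points have an adjusted p under 0.05 and black bars stand at list medians. Filled points lie on both sides of 0 in the lists of NK receptors, their ligands, the death receptor pathway and chemokines, and only below 0 in the lists of granule proteins and transcription factors.

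Ligands of NK receptors were the companion list with the largest share called, 4 of 8 measured, against 8.57% of all genes. Of those called 3 were higher and 1 lower. The other 9 of the 17 listed had no probe set of their own, among them H2-K1, H2-D1, Raet1a and Ulbp1. Clec2d, the ligand of the Klrb1b receptor, went from 9.71 ± 0.20 up to 11.36 ± 0.03 (SD, n = 2), a 3.15-fold rise (adjusted p = 0.0141), and Clec2i, the ligand of Klrb1f, rose 1.81-fold (adjusted p = 0.0365). Cd48, which binds the receptor 2B4, rose 2.13-fold (adjusted p = 0.0321). H60b, a ligand of NKG2D, fell by 0.63 (adjusted p = 0.0255). H2-T23, which encodes the ligand of CD94 with NKG2, had no probe set of its own here.

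Klrd1 and Klrk1 sit side by side in the NK gene complex, a run of lectin-like receptor and ligand genes on chromosome 6. Between Klrb1a and Klra2, 39 genes were measured, of which 4 were higher and 2 lower, and the median change was 0.16. The called genes lay at the end of the run that holds the Klrb1 and Clec2 genes, namely Clec2j, Clec2i, Klrb1f and Clec2d, which rose, and Klrb1b and Cd69, which fell. Cd69, an early activation antigen, went from 12.90 and 12.65 in WT to 11.73 and 11.89 in IfitmF-/- cells. Of the 10 measured genes nearest to Klrd1, 0 were called, Klrk1 among them, and Klre1, Klrc1, Klrc2 and Klrc3 had changes of -0.10 to 0.46. This run was laid out after the values of its genes had been seen.

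**Figure D4:**
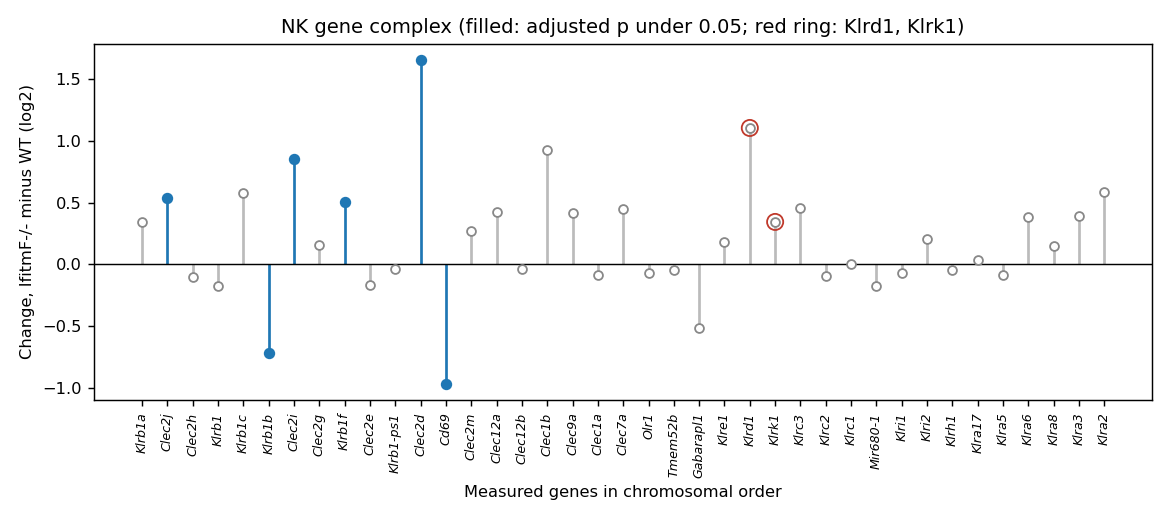
Change (y axis, log2, IfitmF-/- minus WT) of the 39 measured genes of the NK gene complex in chromosomal order (x axis); filled points have an adjusted p under 0.05 and red rings mark Klrd1 and Klrk1. Clec2d has the highest change, 1.66, and Klrd1 the next, 1.11, and no Klra, Klrc or Klri gene is filled.

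The genes most like Klrd1 and Gzmb were sought among 9963 genes at or above the median level, by the root mean square difference of the 4 array values after each gene was centred on its own mean. Nearest to Klrd1 were Exo5 (0.043), Dusp7 (0.085), Ccr9 (0.086), Cd48 (0.096) and Stap1 (0.099). Nearest to Gzmb were Bend4 (0.036), Pim3 (0.036), Samd8 (0.039), Nt5e (0.044) and Tob2 (0.047). None of the 10 named here is another of the NK and cytotoxic transcripts, and with 4 arrays many genes can have a like profile.

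Transcripts that mark the cells which could carry these RNAs were read on the same arrays. The NK marker list, which holds 5 of the 10 transcripts, had a mean level of 7.24 and 6.88 in WT and 7.45 and 7.20 in IfitmF-/- cells, so the genotypes overlapped, and its summed linear level ran from 1443 to 1880 in WT and between 1830 and 2121 in IfitmF-/- cells. Of its 10 genes 8 had positive changes, and only Eomes was called, with a fall. Ncr1 and Klrb1c were higher on both IfitmF-/- arrays, while Klre1 lay low, at 4.66 to 5.07, and overlapped. The CD8 T cell marker Cd8a was at 6.71 and 6.21 in WT and 5.85 and 5.98 in IfitmF-/- cells (change -0.55, adjusted p = 0.168), and Cd8b1 was at 8.64 and 8.06 and at 8.56 and 8.50 (change 0.18, adjusted p = 0.644). Of 6 genes listed for gamma-delta and NKT cells, not all of them confined to such cells, 1 was called. Zbtb16, the factor PLZF that defines NKT cells, fell from 8.38 ± 0.03 to 7.46 ± 0.18 (SD, n = 2; adjusted p = 0.0262). The summed linear level of these 6 lay between 1450 and 1526 in WT and between 1186 and 1219 in IfitmF-/- cells. Slamf1 was the largest part of that sum on every array, so the sum does not measure a cell type. The other members had changes of -0.35 for Slamf1, -0.11 for Sox13, -0.48 for Blk, -0.10 for Il23r and 0.43 for Cd1d1, which was higher on both IfitmF-/- arrays. Blk was highest, at 7.63, on WT replicate 1, the array highest in B cell markers. The part of such cells in the results for the effectors was not tested.

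The mean level of 8 CD4 T cell markers was 10.68 on both WT arrays and 11.12 on both IfitmF-/- arrays. Of these, 3 rose and 0 fell, namely Cd3d (0.59), Cd3g (0.59) and Zbtb7b, the CD4 lineage factor ThPOK (1.44; adjusted p = 0.0284, 0.0304 and 0.0159). The other markers of the list were not called, with changes of -0.01 for Cd3e, 0.04 for Cd6, 0.27 for Cd4, 0.28 for Cd5 and 0.36 for Thy1. Myeloid markers were at a mean of 8.50 and 7.94 in WT and 7.89 and 8.79 in IfitmF-/- cells, with 0 of 8 called, and plasma cell markers at 8.21 and 7.81 and at 7.28 and 7.32, with 0 of 5 called although all 5 were lower on both IfitmF-/- arrays. The brightest plasma cell markers, Jchain and Mzb1, had changes of -0.73 and -0.99 (adjusted p = 0.135 and 0.0925). Neutrophil markers were at 5.21 and 5.18 in WT and 5.67 and 5.81 in IfitmF-/- cells, with 1 of 6 higher, Retnlg, and erythroid markers at 8.78 and 9.47 and at 10.02 and 9.90, with 0 of 3 called. The part of these cells in the results for the 10 transcripts was not tested. Without WT replicate 1, the array highest in B cell markers, the changes of Nkg7 and Fasl were -0.77 and -0.78 and that of Klrd1 was 1.43. Without IfitmF-/- replicate 2, the array highest in platelet markers, they were -0.97 and -0.80, that of Gzmb was -0.91 and that of Klrd1 was 1.19, against 0.78 without WT replicate 2 and 1.02 without IfitmF-/- replicate 1.

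**Figure D5:**
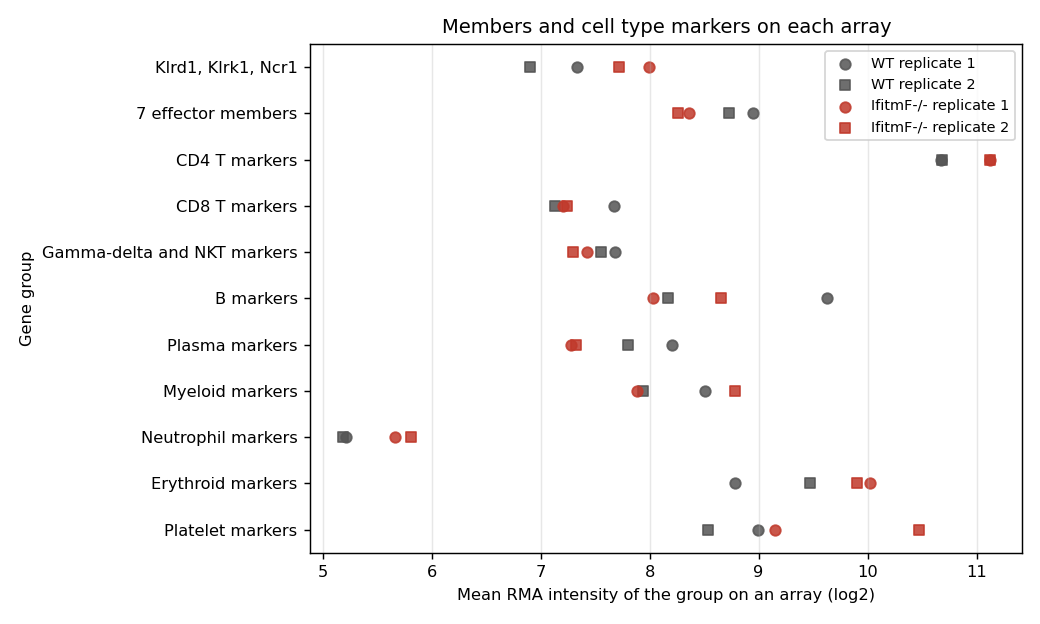
Mean log2 RMA intensity (x axis) of the receptor members, the effector members and 9 lists of cell type markers (y axis) on each array; grey is WT, red IfitmF-/-, circles replicate 1, squares replicate 2. The mean of the 3 receptors is higher and that of the 7 effectors lower on both IfitmF-/- arrays, and WT replicate 1 stands apart for B cell markers and IfitmF-/- replicate 2 for platelet markers.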

How the data were processed

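Total RNA of CD4 T cells was hybridised by the authors to Affymetrix Mouse Gene 1.0 ST arrays, 2 for WT and 2 for IfitmF-/- cells. The deposited values are linear RMA intensities (background corrected, quantile normalized and summarised per probe set), and RMA and affy are named in the submitters' processing notes, with versions not given in the sources used here. RMA makes the arrays alike in distribution, so a shift of most transcripts in 1 direction would not be seen. Array medians were 74.8 to 78.1.

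Intensities were taken to log2 and the genotypes compared with limma 3.58.1 (lmFit, eBayes) in R 4.3.3, with Benjamini-Hochberg adjustment over 34760 probe sets. The 2 residual degrees of freedom were joined by 2.39 from the prior, and the number of arrays limits the precision. Of the probe sets 21640 name 1 gene, 1321 several and 11799 none. A gene was read from the brightest probe set that names it alone. The 10 transcripts and all gene lists were chosen with earlier results of these data known. Named beside them were called genes of each list (up to 4 of smallest p, or 2 where 0 were called), markers from some of the marker lists, the 5 genes most like Klrd1 and Gzmb in profile, and the genes that the text says were picked later. Tnfsf10, the called death receptor gene of largest p, was named outside this rule. Alternatives were other normalizations, filters, tests, a replicate block and leaving out each array.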

Additional observations from a re-analysis of the deposited data

How the results depend on the processing

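With 2 arrays a genotype, the calls rested on few degrees of freedom. Of the 10 transcripts 3 were called, against 5 (with Klrd1 and Ccl5 added) when only probe sets at or above the median level, or only those of 1 gene, were tested; 4 with a mean-variance trend (Ccl5 added); 1, Gzmb, on linear values; and 0 with the study's fold and range filter. The first of these settings called 2577 of the 10494 genes it kept and the second 2790 of 19937, in place of 1708 of 19937, and the marker lists 10 in place of 6 with probe sets of 1 gene. Companion calls were 19, against 26 at or above the median level, 25 with probe sets of 1 gene and 22 with the trend. They were 18 after median centring and 11 on linear values. The methods' t-test at an unadjusted threshold called 6811 probe sets, 4340 genes and 31 companion genes. After Benjamini-Hochberg it called 4 probe sets, 2 genes and 0 of the 10, of the companions and of the markers. Leaving out each array, which takes all spread from the other genotype and limma's prior, gave 0 to 0 calls in limma for the 10, all probe sets, all genes, companions and markers. The median change of the 10 ran from -0.313 without IfitmF-/- replicate 1 to -0.0176 without WT replicate 1. Both transcripts nearest 0 changed sign: Prf1 was -0.0049 after renewed quantile normalization and -0.131 to 0.178 when each array was left out (below 0 without IfitmF-/- replicate 1 or WT replicate 2), and Gzmk was 0.0265 after median centring and -0.11 to 0.0777 when each array was left out (above 0 without WT replicate 1). The causes were not tested.

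Arrays of the same replicate number did not deviate together (correlation -0.124). With 2 arrays a genotype this cannot settle whether the numbers pair the samples. With the replicate block 0 of the 10, 0 probe sets, 0 genes, 0 companions and 0 markers were called in limma. In that fit 8 of the 10 and 4226 of 19937 genes had an unadjusted p under 0.05. Crossing the numbers of the IfitmF-/- arrays, a setting chosen after seeing the data, gave 975 probe sets, 514 genes, 5 companions and 2 of the 10 (Gzmb and Nkg7).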
